A study of Rattus norvegicus with 11 samples.

Results

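Chemokines are small secreted proteins that direct the movement of leukocytes, and their receptors are the surface proteins that read them. The genes described here are the rows of the count table named Ccl, Cxcl, Ccr or Cxcr with a number, together with Cx3cl1, Cx3cr1, Xcl1, Xcr1 and the atypical receptors of the Ackr series. That rule took 56 of 25275 genes, 34 ligands and 22 receptors, and used no measured value. Of these, 54 had at least 1 count in some library, 34 had a count in every library, and 31 (20 ligands and 11 receptors) passed the low-count filter and were tested.

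Ligands of the CC and CXC classes differ in the spacing of their first cysteines, and most bind to glycosaminoglycans on cells and matrix near their source. Their receptors signal through inhibitory G proteins, whereas the atypical receptors bind ligand without that signal and clear it or carry it across cells. In fat, CCL2 and its relatives draw in monocytes that become macrophages, CXCL9, CXCL10 and CXCL11 are induced by interferon, and CXCL12 and CXCL14 are made without inflammation by stromal cells.

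The RNA came from retroperitoneal white fat of 11 female wild-type Wistar rats, 1 library per rat. All were ovariectomized after 6 weeks of western diet and all received degarelix, a blocker of the gonadotropin-releasing hormone receptor, so no group had intact ovaries or unblocked gonadotropins. Osmotic pumps carried vehicle in 6 rats (degarelix only) and follicle-stimulating hormone (FSH) in 5 rats (degarelix plus FSH, here the FSH rats), the daily FSH dose being 6 µg/kg. Age was 10 weeks when the diet began and 19 weeks at harvest, which followed 12 days of limited food, 7 days of free food and a 4 h fast. The comparison asks what FSH does to fat when ovarian hormones and the rats' own gonadotropins are removed. Differences are given as FSH relative to degarelix only.

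Total counts lay between 13163021 and 23694602 per library, so 3 counts equal 0.127 to 0.223 CPM by library. Those 3 counts are about the 95% upper limit for a count of 0 when only read sampling is counted. It is not a hard ceiling. CPM here is the usual depth-scaled count, taken with the TMM-scaled library total. FSH replicate 3 had the lowest total and lay apart from the other libraries on the first principal component (22.7% of the variance). The tissue's own markers were high in every library: the summed CPM of 6 adipocyte genes was 22591 to 32120 with degarelix only and 22854 to 32468 with FSH.

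No chemokine or receptor gene passed the test for a change with FSH. In edgeR's quasi-likelihood test 0 of 31 tested members had an adjusted p under 0.05, against 2.27% of the 12846 genes tested (1.21% higher and 1.07% lower with FSH). At an adjusted p under 0.10 there was 1 member, Ccl7, against 7.49% of all genes. At an unadjusted p under 0.05 there were 4 members (12.9%), against 22.6% of all genes: Ccl7 and Cxcl11 with lower means in the FSH rats, and Cxcl12 and Ccl27 with higher means. DESeq2 called 1 member, Ccl7, and limma-voom with sample weights called 0. In none of the 31 did the FSH rats lie wholly above or below the degarelix-only rats, which was so for 4.34% of all genes.

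The direction of the fitted values was mixed. Of the 31, 17 had a log2 change above 0 and 14 below, with a median of 0.04, against a median of 0.01 over all genes. Ligands divided into 11 above and 9 below (median 0.08) and receptors into 6 above and 5 below (median 0.04). The tissue is a mixture, so fewer cells of a type and less RNA per cell cannot be told apart in any of these values.

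**Figure D1:**
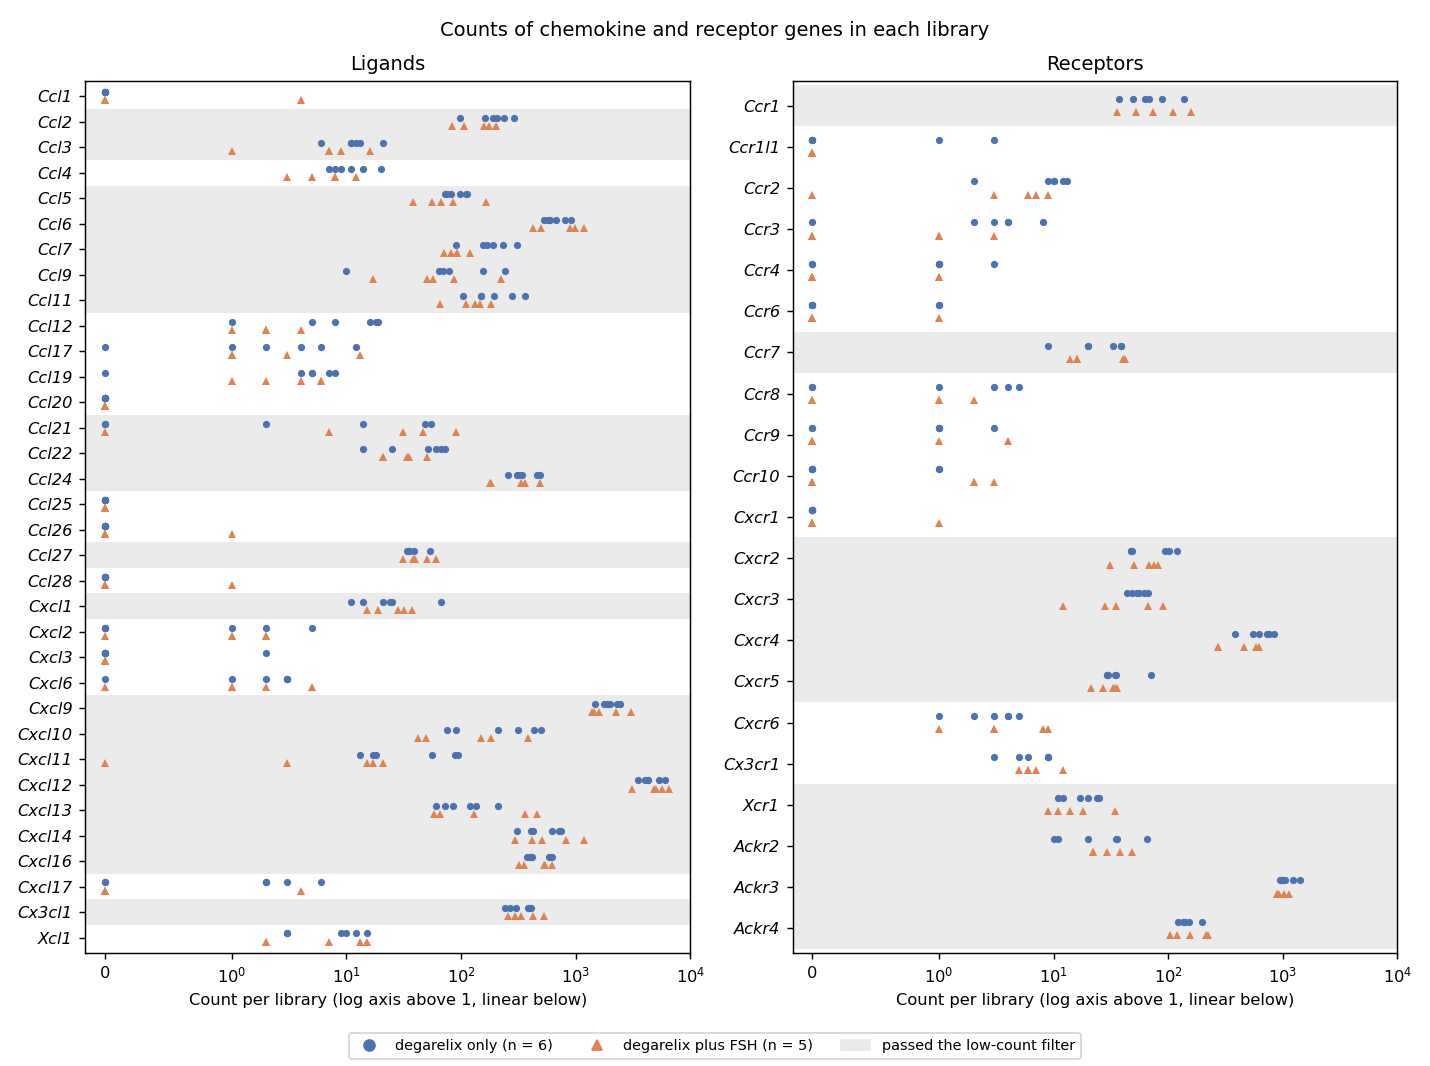
Counts of 55 members in each library, with ligands on the left and receptors on the right. Circles are the 6 degarelix-only rats, triangles the 5 FSH rats, and grey bands mark the 30 of them that passed the low-count filter. The horizontal axis is logarithmic above 1. The counts of the unshaded genes stay at or below 20 in every library, and the circles and triangles overlap in every shaded row.

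Many members had few or no counts. Ccl20, a ligand that draws lymphocytes to mucosa, and Ccl25, a thymic and gut ligand, had 0 counts in all 11 libraries. A further 8 members had at most 3 counts in any library: Ccl26, Ccl28, Cxcl3, Ccr1l1, Ccr4, Ccr6, Ccr10 and Cxcr1. The receptor Ccr3, which marks eosinophils, had at most 8 counts. The number of members with a count was 43 to 45 per library with degarelix only and 42 to 46 with FSH (p = 0.615, exact permutation test, two-sided). With at least 10 counts it was 29 to 34 and 28 to 33 (p = 0.0909, exact permutation test), and with at least 3 counts 37 to 41 and 33 to 41 (p = 0.119, exact permutation test). The unscaled counts of all receptors summed to 2369 ± 204 with degarelix only and 1986 ± 307 with FSH (p = 0.0281, exact permutation test) and those of all ligands to 10354 ± 1454 and 10660 ± 2210 (p = 0.790, exact permutation test). Library totals were also lower on average in the FSH rats (p = 0.0649, exact permutation test). None of these counts and sums is scaled for depth, so they do not compare levels between the groups. The part of the totals in them was not tested.

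Rows named for receptors of monocytes were among the scarce ones. The row named Ccr2, the receptor for CCL2, had 2 to 13 counts with degarelix only and 0, 9, 3, 7 and 6 counts in FSH replicates 1 to 5. Cx3cr1, the receptor for the membrane-bound ligand CX3CL1, had 3 to 9 counts with degarelix only and 5 to 12 with FSH. Neither passed the filter. Fitted without it, their log2 changes were -0.66 and 0.26 (adjusted p = 0.529 and 0.761 in edgeR). The deposited table has no description for its Ccr2 row, so whether its counts stand for the whole gene is not known. Macrophage genes were present in the same libraries, with a summed 340 to 649 CPM of 10 markers with degarelix only and 331 to 717 CPM with FSH.

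Among the ligands that draw monocytes, Ccl7 had the smallest p of all members. Ccl7 (ENSRNOG00000000239), a ligand of CCR1, CCR2 and CCR3, had 4.91 CPM in the lowest, 9.99 CPM at the median and 14.3 CPM in the highest degarelix-only rat. In FSH replicates 1 to 5 it had 5.59, 7.40, 5.27, 5.42 and 3.93 CPM. All 5 FSH rats lay below the degarelix-only mean of 9.76 ± 3.28 CPM (SD, n = 6), but degarelix-only replicate 1 lay below 4 of them, so the groups overlapped. The FSH mean was 5.52 ± 1.24 CPM (SD, n = 5), a log2 change of -0.82 ± 0.25 (SE; 95% interval -1.36 to -0.29; adjusted p = 0.0913 in edgeR).

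The direction of Ccl7 was the same in all 18 alternative analyses, with log2 changes between -0.96 and -0.68. Its adjusted p ranged from 0.0184 in DESeq2 to 0.194 with the replicate number as a block, and it was 0.0609 without degarelix-only replicate 1 in edgeR. DESeq2 was the only alternative that called it at 0.05. In DESeq2 1135 of all genes passed, against 292 in edgeR.

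Ccl2, the main monocyte attractant of the family, lies next to Ccl7 in the genome. Ccl2 (ENSRNOG00000007159) had 5.23, 10.9 and 14.3 CPM in the lowest, median and highest degarelix-only rat and 6.43, 12.3, 6.24, 9.30 and 8.58 CPM in the FSH rats. The means, 10.2 ± 3.59 and 8.58 ± 2.49 CPM, differed by less than the spread (fitted log2 change -0.25 ± 0.27, 95% interval -0.83 to 0.33, adjusted p = 0.607 in edgeR). The interval does not reach a 2-fold change in either direction, and with 1 library left out the fitted change ran from -0.42 (without FSH replicate 2) to -0.13 (without degarelix-only replicate 3).

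Ccl11, also called eotaxin for its action on eosinophils, and Ccl12 stand in the same block of neighbouring genes, in the RefSeq order Ccl2, Ccl7, Ccl11, Ccl12 and Ccl1. Ccl11 (ENSRNOG00000007335) had 5.61 to 16.8 CPM with degarelix only (median 8.71) and 10.9, 8.14, 4.90, 6.48 and 7.03 CPM with FSH (fitted log2 change -0.50 ± 0.31, adjusted p = 0.349 in edgeR). Degarelix-only replicates 3 and 4 were the high ones, at 16.8 and 16.6 CPM, and every other rat of either group was at 10.9 CPM or lower. Ccl12, another CCR2 ligand, was too scarce to be tested: it had 5, 16, 8, 18, 19 and 1 counts in degarelix-only replicates 1 to 6 and 2, 2, 4, 2 and 1 counts in FSH replicates 1 to 5. Fitted without the filter, its log2 change was -2.05 (adjusted p = 0.135 in edgeR). The lowest Ccl12 count was in a degarelix-only rat, replicate 6, so the groups overlapped. Ccl1 had 4 counts in FSH replicate 3 and 0 elsewhere.

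The other macrophage-linked CC ligands lie in a second block, Ccl5, Ccl9, Ccl6, Ccl3 and Ccl4. Ccl6 (ENSRNOG00000030021), a ligand of CCR1 in rodents, had 22.6 to 42.3 CPM with degarelix only (median 37.8) and 25.3, 72.9, 37.1, 52.5 and 48.0 CPM with FSH. FSH replicates 2, 4 and 5 lay above all degarelix-only rats and replicate 1 lay low among them (fitted log2 change 0.41 ± 0.24, adjusted p = 0.334 in edgeR, and 0.20 without FSH replicate 2). Ccl9 (ENSRNOG00000028548), another CCR1 ligand, spanned 0.539 to 11.9 CPM with degarelix only and had 5.22, 13.8, 4.23, 2.94 and 0.824 CPM with FSH. Low and high rats stood in both groups, and the fitted change was 0.04 ± 0.69. Without FSH replicate 2 it was -0.67.

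Ccl5, made by T cells and other leukocytes, had 3.65 to 6.73 CPM with degarelix only and 4.02, 5.24, 4.16, 2.24 and 7.95 CPM with FSH (fitted log2 change -0.01 ± 0.28). Both extremes of Ccl5 were FSH rats. Ccl3, a ligand of CCR1, had 0.657 ± 0.339 and 0.471 ± 0.276 CPM, and Ccl4, a related macrophage ligand, had 3 to 20 counts and was not tested. Ccl24, an eosinophil attractant, had 18.6 ± 3.46 and 18.0 ± 5.68 CPM (fitted log2 change -0.04 ± 0.21). Ccl22, which draws regulatory T cells through CCR4, had 2.49 ± 1.3 and 1.92 ± 0.680 CPM (fitted log2 change -0.37 ± 0.38, and -0.13 without degarelix-only replicate 5 or -0.59 without FSH replicate 1), and Ccl17, its partner at that receptor, had at most 13 counts.

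**Figure D2:**
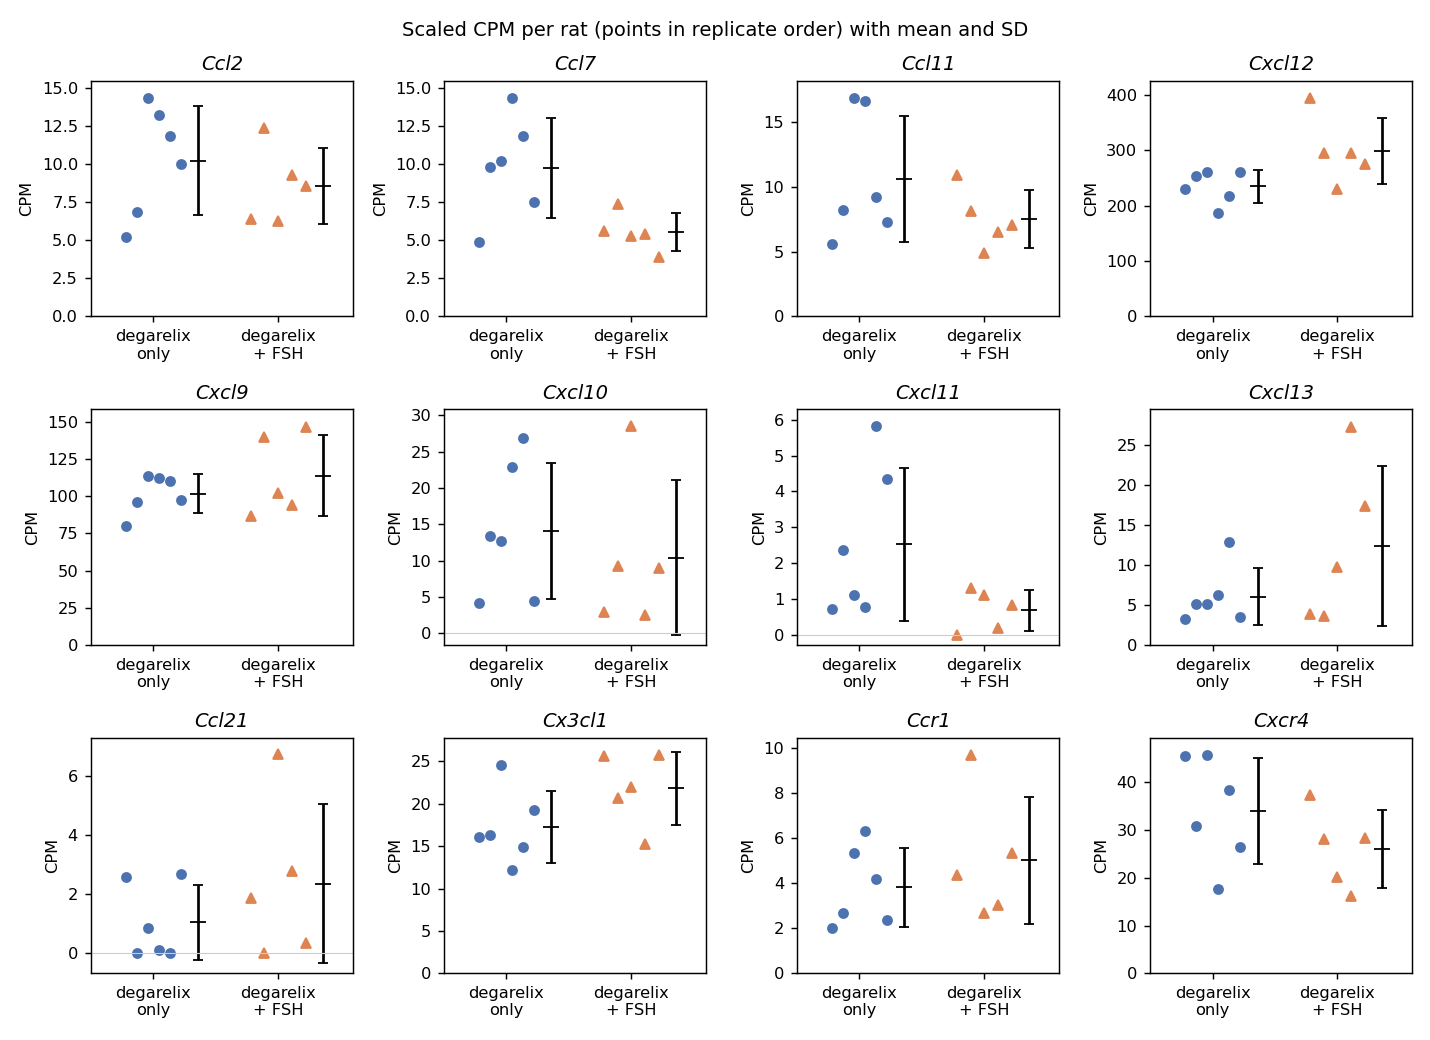
Scaled CPM of 12 members in each rat, in order of replicate number, with the mean and SD of each group (n = 6 and n = 5). Vertical axes are linear and include 0. Ccl7 lies between 3.93 and 7.40 CPM in the FSH rats, and single rats stand high for Cxcl10 (28.5 CPM) and Ccr1 (9.69 CPM) in the FSH group. Ccl21 is at 0 in rats of both groups.

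Cxcl9, Cxcl10 and Cxcl11 are neighbouring genes whose products share the receptor CXCR3 on activated T cells. Their spread between rats differed, with a within-group coefficient of variation of 0.18 for Cxcl9, 0.73 for Cxcl10 and 0.84 for Cxcl11. Cxcl9 (ENSRNOG00000022242) had 79.8, 104 and 114 CPM in the lowest, median and highest degarelix-only rat and 86.7, 140.0, 102, 94.1 and 147 CPM in the FSH rats. FSH replicates 2 and 5 lay above every degarelix-only rat and the others within their range (fitted log2 change 0.16 ± 0.15, 95% interval -0.16 to 0.48, adjusted p = 0.533 in edgeR).

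Cxcl10 (ENSRNOG00000022256) differed widely between rats of one group. It had 4.10 to 26.9 CPM with degarelix only (median 13.1) and 2.94, 9.25, 28.5, 2.47 and 8.92 CPM with FSH. The FSH group held both the highest and the lowest rat (fitted log2 change -0.45 ± 0.66, adjusted p = 0.724 in edgeR). Without FSH replicate 3, the library apart on the first component, the log2 change was -1.24 (adjusted p = 0.273).

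Cxcl11 (ENSRNOG00000022298), the strongest CXCR3 agonist of the trio, had 0.701, 1.73 and 5.82 CPM in the lowest, median and highest degarelix-only rat. It had 0, 1.3, 1.11, 0.177 and 0.824 CPM in the FSH rats. For the 0 in replicate 1 the approximate limit of 3 counts equals 0.180 CPM. Degarelix-only replicates 2, 5 and 6 lay above all FSH rats, and replicates 1, 3 and 4 overlapped them. The log2 change was -1.88 ± 0.76 (95% interval -3.55 to -0.21; adjusted p = 0.178 in edgeR), the lowest of the tested members. No alternative called it (adjusted p 0.130 to 0.291), and DESeq2 gave it no adjusted p.

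The promoters of these genes are shown because these neighbours share a receptor but differ in spread between rats. Those of Ccl7, the member of smallest p, and of Cxcl1, which held matches to the NF-κB letters searched, are added. Each runs from 250 bases before to 50 after the RefSeq start, read 5′ to 3′ on the gene's strand, in build GRCr8, which is not the build of the counts. They are Cxcl9 at chr14:16006916-16007215 (plus strand), Cxcl10 at chr14:15988816-15989115 (plus), Cxcl11 at chr14:15973478-15973777 (plus), Ccl7 at chr10:67513845-67514144 (plus) and Cxcl1 at chr14:17479272-17479571 (minus). Capitals mark matches on either strand to fixed spellings. They are GAAA, any 2 bases, GAAA for an interferon-stimulated response element and GGG, any 2 bases, TTTCC for an NF-κB site. Sites spelled otherwise stay in lower case. The motifs do not overlap in these promoters.
Cxcl9: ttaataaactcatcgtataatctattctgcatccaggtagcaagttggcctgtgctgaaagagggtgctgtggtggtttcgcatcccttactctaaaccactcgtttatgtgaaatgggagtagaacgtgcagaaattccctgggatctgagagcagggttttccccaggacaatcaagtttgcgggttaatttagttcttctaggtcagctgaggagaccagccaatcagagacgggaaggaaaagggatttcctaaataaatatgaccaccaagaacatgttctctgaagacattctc
Cxcl10: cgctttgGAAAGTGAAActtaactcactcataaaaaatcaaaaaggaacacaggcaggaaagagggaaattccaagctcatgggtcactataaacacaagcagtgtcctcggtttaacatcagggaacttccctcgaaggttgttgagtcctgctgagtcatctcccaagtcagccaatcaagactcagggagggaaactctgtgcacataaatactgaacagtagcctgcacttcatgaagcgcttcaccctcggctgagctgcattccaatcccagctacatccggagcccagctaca
Cxcl11: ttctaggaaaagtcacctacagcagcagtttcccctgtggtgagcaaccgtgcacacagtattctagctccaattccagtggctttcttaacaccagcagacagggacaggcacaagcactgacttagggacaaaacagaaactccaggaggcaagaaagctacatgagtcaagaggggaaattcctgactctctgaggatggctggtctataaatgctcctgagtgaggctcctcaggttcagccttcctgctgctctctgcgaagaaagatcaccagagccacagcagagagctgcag
Ccl7: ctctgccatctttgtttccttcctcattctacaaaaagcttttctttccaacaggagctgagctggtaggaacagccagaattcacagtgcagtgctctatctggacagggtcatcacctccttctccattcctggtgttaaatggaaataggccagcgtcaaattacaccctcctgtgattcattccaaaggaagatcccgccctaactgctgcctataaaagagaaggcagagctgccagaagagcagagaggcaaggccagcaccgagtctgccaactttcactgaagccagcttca
Cxcl1: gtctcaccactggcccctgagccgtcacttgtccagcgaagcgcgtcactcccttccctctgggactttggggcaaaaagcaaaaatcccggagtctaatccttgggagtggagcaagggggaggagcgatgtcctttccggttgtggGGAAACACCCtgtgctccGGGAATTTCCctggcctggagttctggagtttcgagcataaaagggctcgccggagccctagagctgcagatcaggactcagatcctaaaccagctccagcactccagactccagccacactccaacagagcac

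Of the 5, Cxcl10 alone held the interferon letters, as GAAAGTGAAA from base -243 to -234 relative to the start. Those letters stood in 2 of the 43 member promoters in the table (Cxcl10 and Ccl19) and in 3.92% of all 33365 promoters of that length. The NF-κB spelling searched stood in Cxcl1 alone of the 5, once on each strand. The matches were GGGAATTTCC from -84 to -75 and GGAAACACCC from -102 to -93. That spelling stood in 6 member promoters (Ccl9, Ccl20, Ccr3, Cxcl1, Cxcl2 and Cxcl6), against 1.53% of all promoters. The similar run GGGAAATTCC in Cxcl10 and Cxcl11 lies outside that spelling and was not counted. TATAAA stood in 12 of the 43, Ccl7, Cxcl10 and Cxcl11 among them, and in 14.2% of all promoters. It lay from -34 to -29 in Ccl7 and from -41 to -36 in Cxcl11, but from -162 to -157 in Cxcl10. These are matches of fixed letters in a fixed window and say nothing of binding. A promoter without them may hold a site spelled otherwise.

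Cxcl1, a neutrophil attractant read by CXCR2, had 0.593 to 4.06 CPM with degarelix only (median 1.04) and 1.14, 2.28, 1.11, 1.65 and 1.55 CPM with FSH. Degarelix-only replicate 3 stood alone at 4.06 CPM. With that rat the log2 change was 0.12 ± 0.45, and without it 0.73 (adjusted p = 0.146 in edgeR). Its relatives Cxcl2, Cxcl3 and Cxcl6 had at most 5 counts in any library.

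Cxcl12 (ENSRNOG00000013589), the stromal ligand of CXCR4 and ACKR3, had 186, 242 and 260.4 CPM in the lowest, median and highest degarelix-only rat and 393, 296, 231, 295 and 274 CPM in the FSH rats. All FSH rats but replicate 3 lay above every degarelix-only rat. The means were 235 ± 29.6 and 298 ± 59.6 CPM, a log2 change of 0.34 ± 0.13 (95% interval 0.06 to 0.63; adjusted p = 0.149 in edgeR). It stayed between 0.22 and 0.42 over the 18 alternatives, none of which called it, and was lowest without FSH replicate 1. Summed endothelial markers were also higher on average in the FSH rats, at 1425 to 1932 CPM with degarelix only and 1618 to 2638 CPM with FSH (8 genes, none near 0; p = 0.0325, adjusted over 18 marker lists 0.448, exact permutation test). FSH replicate 1 was the highest rat for both, and the part of endothelial RNA in the Cxcl12 values was not tested. Summed progenitor markers were at 413 to 737 and 514 to 686 CPM (p = 0.766, exact permutation test).

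Cx3cl1 (ENSRNOG00000016326), a ligand tethered to endothelial and other cells, had 12.2 to 24.5 CPM with degarelix only (median 16.2) and 25.6, 20.7, 21.9, 15.2 and 25.7 CPM with FSH. FSH replicates 1 and 5 lay above all others and the rest overlapped (fitted log2 change 0.34 ± 0.18, adjusted p = 0.272 in edgeR). The part of the endothelial marker sums given for Cxcl12 was not tested here either.

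Ccl27, best known as a skin ligand, was low and even. It had 1.65, 2.0 and 2.48 CPM in the lowest, median and highest degarelix-only rat and 3.0, 2.34, 2.30, 2.36 and 2.96 CPM in the FSH rats. FSH replicates 1 and 5 lay above all degarelix-only rats, and the other 3 lay inside the upper part of their range (fitted log2 change 0.38 ± 0.16, adjusted p = 0.181 in edgeR). Its counts were 31 to 61 per library.

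Cxcl14, a ligand of stromal and epithelial cells, had 19.2 to 40.1 CPM with degarelix only (median 25.6) and 17.6, 31.6, 30.9, 69.4 and 39.8 CPM with FSH. FSH replicate 4 was the highest rat and replicate 1 the lowest (fitted log2 change 0.46 ± 0.31, adjusted p = 0.392 in edgeR). Without replicate 4 the log2 change was 0.13. Cxcl16, a membrane-bound ligand and scavenger receptor of macrophages, had 23.9 ± 3.49 CPM with degarelix only. With FSH it had 31.8, 33.4, 26.2, 18.7 and 30.3 CPM, with replicate 4 low (fitted log2 change 0.23 ± 0.15, adjusted p = 0.362 in edgeR).

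The ligands that organise lymphoid tissue were uneven between rats. Cxcl13 (ENSRNOG00000024899), which draws B cells through CXCR5, had 3.24, 5.11 and 12.9 CPM in the lowest, median and highest degarelix-only rat and 3.9, 3.58, 9.73, 27.3 and 17.4 CPM in the FSH rats. FSH replicates 4 and 5 were the highest rats and replicates 1 and 2 lay among the low degarelix-only rats. The log2 change was 1.05 ± 0.54 (95% interval -0.12 to 2.22, adjusted p = 0.271 in edgeR), and 0.54 without FSH replicate 4.

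Ccl21, the lymph node and lymphatic ligand of CCR7, had 0 counts in degarelix-only replicates 2 and 5 and in FSH replicate 2. It had 48, 14, 2 and 55 counts in degarelix-only replicates 1, 3, 4 and 6 and 31, 91, 47 and 7 counts in FSH replicates 1, 3, 4 and 5. Presence and absence did not follow the groups (fitted log2 change 1.14 ± 1.11, adjusted p = 0.569 in edgeR, and 0.25 without FSH replicate 3, the highest). Ccl19, the other CCR7 ligand, had 0 to 8 counts. Of 6 markers of lymphoid stroma and high endothelial venules, 5 stayed under 10 counts in every library and Chst4 was at 0. Of 6 B cell markers, 5 stayed under 10 counts. The summed markers of lymphatic vessels were 31.6 to 62.7 CPM with degarelix only and 38.1 to 47.2 CPM with FSH.

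**Figure D3:**
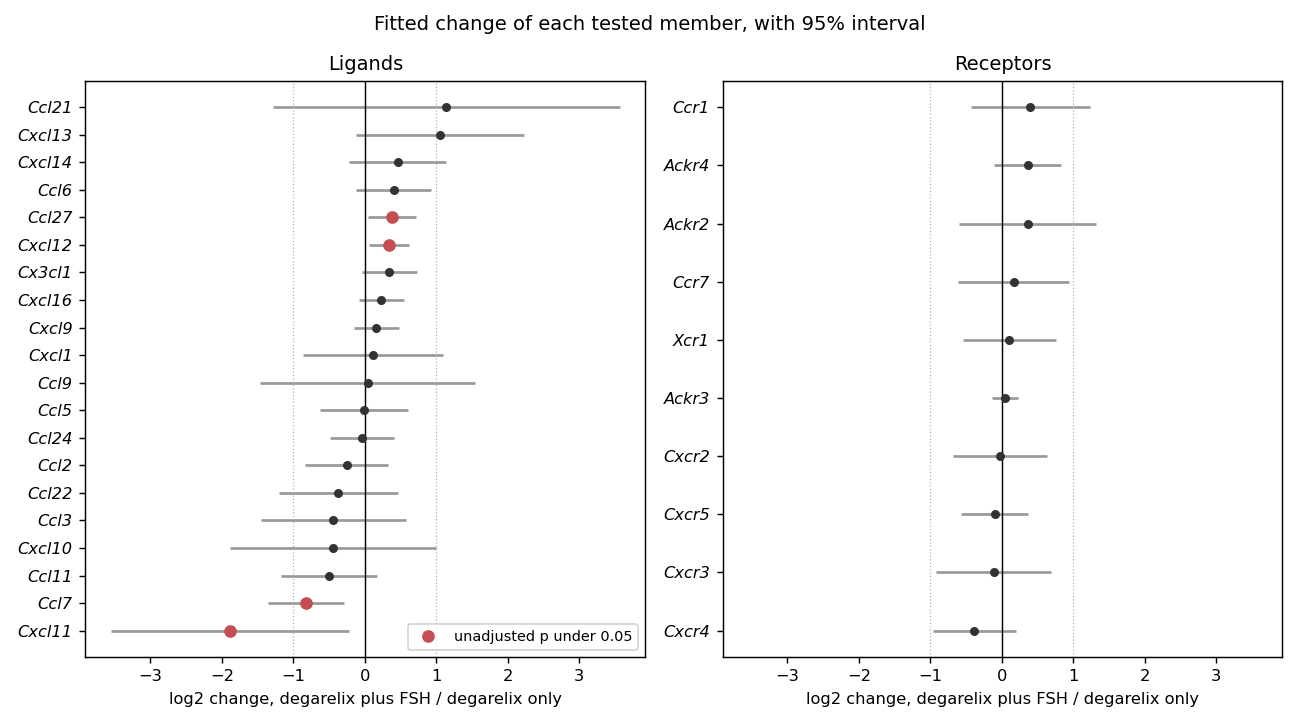
Fitted log2 change of each tested member with its 95% interval, for 20 ligands on the left and 10 receptors on the right. Red points mark the 4 members with an unadjusted p under 0.05, and dotted lines mark a 2-fold change. The intervals of Cxcl11 and Ccl21 are the widest and that of Ackr3 is the narrowest.

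Fitted changes of the receptors lay between -0.38 for Cxcr4 and 0.40 for Ccr1. Cxcr4 (ENSRNOG00000003866), the signalling receptor for CXCL12, had 17.7, 34.5 and 45.6 CPM in the lowest, median and highest degarelix-only rat and 37.4, 28.0, 20.1, 16.1 and 28.4 CPM in the FSH rats. Degarelix-only replicates 1, 3 and 5 lay above all FSH rats and the others overlapped them (fitted log2 change -0.38 ± 0.26, adjusted p = 0.408 in edgeR). Its fitted sign was opposite to that of Cxcl12, and neither passed.

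Ccr1, a macrophage and neutrophil receptor, was highest in FSH replicate 2, at 9.69 CPM. It had 2.0 to 6.35 CPM with degarelix only and 2.67 to 5.33 CPM in the other FSH rats (fitted log2 change 0.40 ± 0.38, adjusted p = 0.561 in edgeR, and 0.03 without FSH replicate 2). The summed macrophage markers were also highest in FSH replicate 2, at 717 CPM, as were the T and NK cell markers, at 65.4 CPM, and their part in the Ccr1 value was not tested. Cxcr2, the neutrophil receptor for CXCL1, had 3.80 ± 1.25 and 3.77 ± 1.6 CPM (fitted log2 change -0.03 ± 0.30).

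Receptors of lymphocytes and dendritic cells were low in both groups. Cxcr3, the receptor for the interferon-induced trio, had 2.90 ± 0.805 CPM with degarelix only and 0.721, 4.07, 2.08, 2.06 and 4.31 CPM with FSH (fitted log2 change -0.11 ± 0.37). FSH replicate 1, the lowest for Cxcr3, was also the one with no Cxcl11 count. Ccr7, which guides dendritic and T cells to lymph nodes, had 1.33 ± 0.475 and 1.5 ± 0.746 CPM, and Cxcr5 had 1.92 ± 0.593 and 1.79 ± 0.238 CPM. Xcr1, a receptor of cross-presenting dendritic cells, had 0.929 ± 0.254 and 0.988 ± 0.420 CPM, and its ligand Xcl1 had 2 to 15 counts. Cxcr6, the receptor for CXCL16, had 1 to 9 counts.

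The atypical receptors were present in every library, apart from Ackr1, for which no value was analysed here. Ackr3 (ENSRNOG00000019622), the scavenger of CXCL12, was the steadiest member, at 47.8, 56.7 and 64.5 CPM in the lowest, median and highest degarelix-only rat and 55.2, 54.7, 65.4, 60.6 and 54.4 CPM in the FSH rats. Its log2 change was 0.04 ± 0.08 with a 95% interval of -0.14 to 0.22 (adjusted p = 0.793 in edgeR), which bounds any difference well inside 1.5-fold. Ackr4, which clears CCL19 and CCL21, had 5.61 to 9.47 CPM with degarelix only and 13.2, 13.3, 7.72, 9.13 and 5.72 CPM with FSH. FSH replicates 1 and 2 lay above all degarelix-only rats (fitted log2 change 0.37 ± 0.21, adjusted p = 0.332 in edgeR). Ackr2, a decoy for inflammatory CC ligands, had 0.593 to 2.99 CPM with degarelix only and 1.32, 1.36, 2.82, 2.83 and 1.41 CPM with FSH (fitted log2 change 0.36 ± 0.44, and 0.19 without FSH replicate 4 or 0.70 without degarelix-only replicate 4).

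The members varied between rats of one group more than most genes of like abundance. For 26 of 31 members (83.9%) the gene's own coefficient of variation between rats, as edgeR estimates it within groups, lay above the trend at that abundance, against 23.2% of all genes tested. The median ratio to the trend was 1.40 for the members and 0.72 for all genes. It was highest for Ccl21 (5.05), Cxcl10 (3.73), Ccl9 (3.0), Cxcl11 (2.76), Cxcl13 (2.72) and Cxcl14 (2.29). The 5 members below the trend were Cxcl12 (0.99), Xcr1 (0.90), Ackr3 (0.75), Cxcr5 (0.74) and Ccl27 (0.52).

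**Figure D4:**
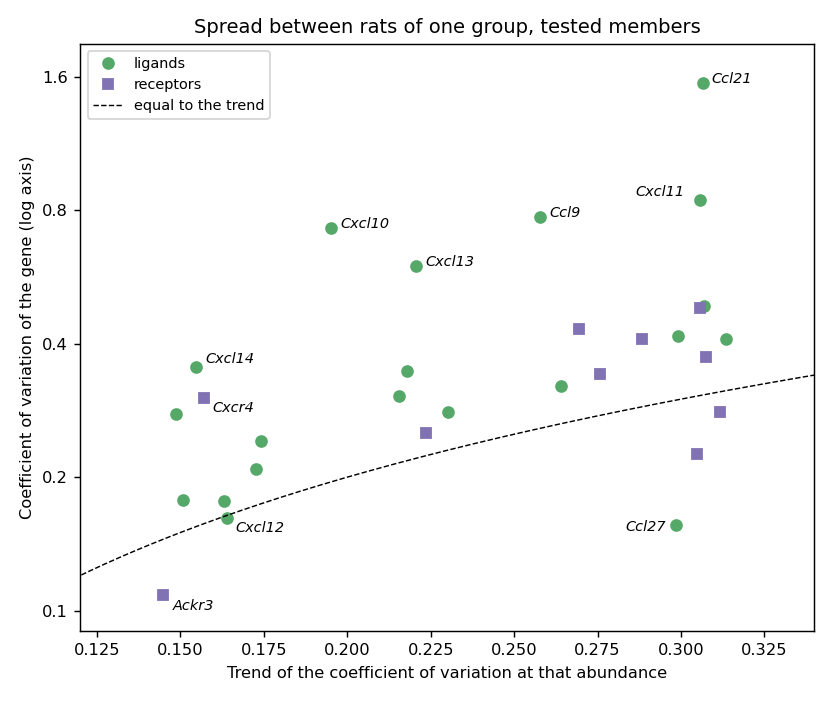
Coefficient of variation between rats of one group for 30 tested members (log axis) against the trend for genes of the same abundance (linear axis). Circles are ligands, squares are receptors and the dashed line marks equality. Most points lie above the line, with Ccl21 at 1.55 the highest, and Ackr3 at 0.11 is the lowest.

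That spread sets what could be seen. The 95% interval of the log2 change lay inside a 2-fold change either way for 17 of 31 members (54.8%), against 89.3% of all genes. It lay inside 1.5-fold for 5 of 31 members, against 8634 of the 12846 genes tested. For the 14 others, among them Cxcl10, Cxcl11, Cxcl13, Ccl9 and Ccl21, the interval reached a 2-fold change or more, so a failed test does not show that they were alike in the groups.

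A set of 7 relations across the 11 rats asked whether ligands vary with one another or with cell markers, on log2(CPM + 0.5) values. Ccl2 with summed macrophage markers gave Pearson's r = 0.71 (permutation p = 0.0154, adjusted over the 7 relations 0.108) and Spearman's rho = 0.61 (permutation p = 0.0517). Its r was 0.60 without the 2 rats farthest from the median of the markers, and 0.69 within the 6 degarelix-only rats (exact p = 0.149). Lyz2 made up 208 of the 460 CPM of that marker sum with degarelix only. Ccl7 with Ccl2 gave r = 0.65 (permutation p = 0.0332, adjusted 0.116) and rho = 0.73 (permutation p = 0.0144), with r = 0.57 without the 2 farthest rats and 0.78 within degarelix only (exact p = 0.0611). Neither passed after adjustment, and the 5 FSH rats were too few for a value of their own.

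Cxcl10 with Cxcl9 gave r = 0.43 (permutation p = 0.193) and rho = 0.47 (permutation p = 0.147), with r = 0.75 without the 2 farthest rats, FSH replicates 2 and 5, and 0.79 within degarelix only (exact p = 0.0764). Ccl5 with T and NK cell markers gave r = 0.22 and rho = 0.15 (permutation p = 0.517 and 0.669), with r = 0.15 without the 2 farthest rats and -0.02 within degarelix only (exact p = 0.960). Cd4, which macrophages of the rat also express, made up 28.9 of the 47.1 CPM of that marker sum with degarelix only. Cxcl13 with B cell markers gave r = -0.04 and rho = 0.06 (permutation p = 0.896 and 0.860). Its r was above 0 without the 2 farthest rats, at 0.49, and within degarelix only, at 0.48 (exact p = 0.351). Ccr7 with B cell markers gave r = 0.37 and rho = 0.20 (permutation p = 0.261 and 0.558), with r = 0.52 without the 2 farthest rats and 0.26 within degarelix only (exact p = 0.685). Cxcl12 with progenitor markers gave r = -0.14 and rho = -0.32 (permutation p = 0.684 and 0.344), with r = -0.22 and -0.39 in the same subsets (exact p within degarelix only 0.438). FSH replicate 4, the highest rat for Cxcl13, had 0.589 CPM of summed B cell markers, among the lowest sums.

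**Figure D5:**
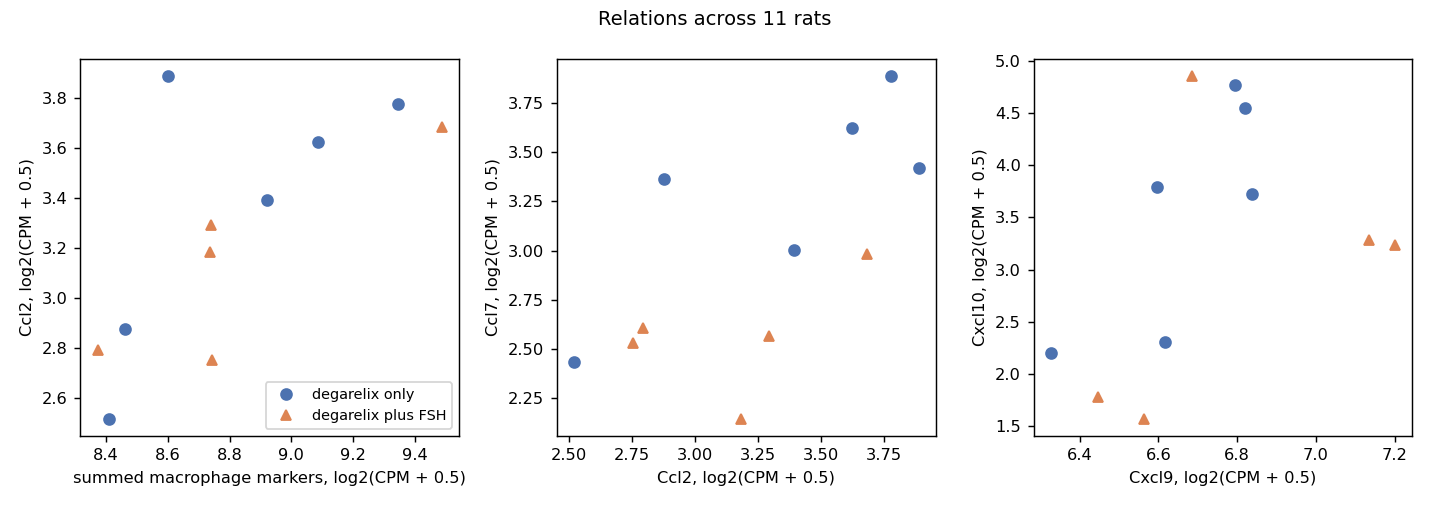
Each point is 1 of the 11 rats (circles degarelix only, triangles FSH), on log2(CPM + 0.5) axes. The panels show Ccl2 against summed macrophage markers (r = 0.71), Ccl7 against Ccl2 (r = 0.65) and Cxcl10 against Cxcl9 (r = 0.43). In the middle panel the triangles, at 3.93 to 7.40 CPM of Ccl7, lie in the lower part of the vertical axis.

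Genes around the chemokine system were read from 4 lists. Among signalling partners of the receptors, 0 of 27 tested passed in either direction, against 2.27% of all genes tested. At that share a list this short may well hold 0. Of the 27, 13 fitted higher and 14 lower (median -0.01). Gnai2, the inhibitory G protein that the receptors couple to, had a log2 change of 0.01 ± 0.06. The arrestins Arrb1 and Arrb2, which turn receptors off, had 0.35 ± 0.21 and 0.04 ± 0.09. Among leukocyte adhesion genes 0 of 12 passed, against the same share of all genes. Of these 12, 4 fitted higher and 8 lower (median -0.07), with the endothelial ligands Icam1 at -0.13 ± 0.10 and Vcam1 at 0.18 ± 0.19.

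Among regulators that induce chemokine genes, 1 of 22 rose and 1 fell (median 0.03), where 1.21% of all genes tested rose and 1.07% fell. Irf3, a factor activated by viral sensing, rose, with 123 ± 9.21 CPM in degarelix-only and 149.7 ± 10.1 CPM in FSH rats and no overlap (fitted log2 change 0.29 ± 0.07, adjusted p = 0.0492 in edgeR). Nfkbia, the NF-κB inhibitor that NF-κB itself induces, had 91.9 ± 13.1 and 116 ± 12.2 CPM (fitted log2 change 0.33 ± 0.10, adjusted p = 0.0959 in edgeR). Irf7, the interferon-induced factor that amplifies interferon output, had the lowest fitted change of the list, with 347 ± 159.8 and 186 ± 100.1 CPM (fitted log2 change -0.90 ± 0.39, adjusted p = 0.197 in edgeR). The cytokine Tnf was listed at 0 in every library, and Il6 and Ifng were too scarce to test.

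Among binding partners and processing genes 0 of 17 passed, against 2.27% of all genes tested. Of the 17, 11 fitted higher and 6 lower (median 0.04). Cmklr1 (ENSRNOG00000000704), the receptor for the adipokine chemerin and a relative of the chemokine receptors, came closest. It had 32.8, 54.4 and 94.2 CPM in the lowest, median and highest degarelix-only rat and 28.8, 24.3, 37.7, 19.9 and 34.1 CPM in the FSH rats. Only degarelix-only replicate 6, at 32.8 CPM, reached into the FSH range (fitted log2 change -1.11 ± 0.27, adjusted p = 0.0550 in edgeR). Rarres2, which encodes chemerin, had 418 ± 49.2 and 430.1 ± 53.1 CPM (fitted log2 change 0.04 ± 0.10), and Ccrl2, which presents chemerin to CMKLR1, had 0.21 ± 0.26.

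No summed list of leukocyte markers passed a test between the groups. Summed over each list, macrophage markers held 460 ± 122 CPM with degarelix only and 466 ± 146 CPM with FSH (p = 0.929, exact permutation test). Of that sum Lyz2 held 208 and 181 CPM and Cd14 72.7 and 103 CPM on average. Among the 10 markers 7 fitted higher and 3 lower, and 0 passed singly, against 2.27% of all genes tested. Monocyte markers held 41.3 ± 11.5 and 44.8 ± 10.4 CPM (p = 0.621, exact permutation test). The largest part was Nr4a1, at 14.6 and 19.6 CPM. Plac8 had 12.5 CPM in both groups, Vcan 9.57 and 9.05 CPM and Fcgr3a 4.66 and 3.62 CPM. T and NK cell markers held 47.1 ± 12.9 and 44.5 ± 14.0 CPM (p = 0.740, exact permutation test), with Gzmb and Klrb1 at 0. Neutrophil markers held 589 ± 198 and 397 ± 64.5 CPM (p = 0.0974, exact permutation test), nearly all of it Mpo, while Elane stayed under 10 counts. Dendritic cell markers held 17.9 ± 2.75 and 21.9 ± 4.96 CPM (p = 0.117, exact permutation test). Of the 5, 1 rose, Zbtb46 (fitted log2 change 0.69, adjusted p = 0.0318 in edgeR), against 1.21% of all genes tested. Zbtb46, which endothelial cells also express, had 6.89 ± 1.33 and 11.1 ± 1.06 CPM, and the other 4 markers had fitted changes between -0.09 and 0.12. Endothelial marker sums were higher on average in the FSH rats too, and their part in the Zbtb46 value was not tested.

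Of the remaining lists, B cell markers held 1.12 ± 0.488 and 1.25 ± 0.434 CPM and plasma cell markers 129 ± 14.8 and 158 ± 51.9 CPM. Nearly all of the plasma cell sum was Xbp1, at 128 and 157 CPM. Jchain had 0.660 and 0.485 CPM, Mzb1 had 0.336 and 0.431 CPM, and Tnfrsf17 stayed under 10 counts. Mast cell markers held 56.1 ± 23.4 and 51.8 ± 14.6 CPM and eosinophil markers 3.65 ± 1.81 and 3.58 ± 0.738 CPM. Nearly all of the eosinophil sum was Siglec5, at 3.56 and 3.35 CPM, while Prg2 stayed under 10 counts and Epx was at 0. Smooth muscle and pericyte markers held 736 ± 93.0 and 877 ± 113 CPM (p = 0.0498, exact permutation test), and 5 of 5 had fitted changes above 0. Adipocyte markers held 26337 ± 3784 and 26544 ± 3933 CPM. Lymphatic endothelial, mesothelial, lymphoid stroma, platelet and erythroid sums gave p = 0.619, 0.617, 0.768, 0.351 and 0.214 (exact permutation tests). In the endothelial list 8 of 8 had fitted changes above 0, as did 51.6% of all genes tested, and Tek, an angiopoietin receptor, rose (fitted log2 change 0.44, adjusted p = 0.0431 in edgeR), against 1.21% of all genes. No list passed after adjustment over the 18 lists (lowest adjusted p 0.448).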

How the data were processed

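Raw counts per gene, deposited by the authors as whole numbers for each rat, were the starting values. The submitters' processing notes name STAR, DESeq2, edgeR and rn6 without saying what each did. Which program counted the reads, with which annotation and strand setting, is not given in the sources used here. Per the labels' protocols, libraries were strand-marked and paired-end. Counts of chemokine genes with near-identical copies are uncertain, as are those of overlapping or antisense genes. Gene lengths were not used, so levels are compared only within a gene.

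Columns were matched to rats by the labels. Pcmt1 was left out, as 1 of its cells holds a letter. Members, lists and tests were chosen with earlier results of these data known; the named members are those of smallest p and 31 ligands, receptors and scavengers listed in the design, with others by range. Members singled out for 1 high or low rat, and Ccl12 without the filter, were named after their values were seen. Of the listed marker and pathway symbols, Mif, Pecam1, Ly6c and Ly6a were not matched. Values of 1 member and 1 listed gene are not reported here, though counts over the members and lists include them.

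edgeR 4.0.16 in R 4.3.3 was run on all genes (TMM scaling, filterByExpr, quasi-likelihood F test with the robust option, group as the only term), with Benjamini-Hochberg adjustment over 12846 genes and a threshold of 0.05. SE is the log2 change over the root of F. Alternatives were other scalings and filters, each library left out, a replicate block, DESeq2 1.42.0, limma-voom (limma 3.58.1) and other thresholds. Sums and counts were tested by exact permutation over 462 splits (smallest p 0.00216), and relations with 100000 permutations. The edgeR step was tested on simulated data. Libraries were compared in pairs (lowest chi-square per degree of freedom 22.4) and none repeated another. Promoters came from RefSeq (GRCr8), which had 43 of 56 members, 24 of them tested.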

Additional observations from a re-analysis of the deposited data

Results flagged for a closer look

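There were 60 groups examined (30 tested members in each of the 2 groups). In 4 of them 1 rat stood apart from the rest of its group by Dixon's gap criterion. Chance alone marks about 1 group in 20 where values are normally distributed. The values were CPM without a log, so that rate may not hold for skewed genes. All 4 flagged values were high. Ccl3, a ligand of CCR1, was at 1.3 CPM in degarelix-only replicate 5, against 0.324 to 0.667 CPM in the others. Cxcl13, the B cell attractant, was at 12.9 CPM in the same rat, against 3.24 to 6.26 CPM. Cxcl1, the neutrophil attractant, was at 4.06 CPM in degarelix-only replicate 3, against 0.593 to 1.10 CPM. Cxcl10, the interferon-induced ligand, was at 28.5 CPM in FSH replicate 3, against 2.47 to 9.25 CPM.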

How the results depend on the processing

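Over all genes, 292 passed in edgeR, 962 at an adjusted p under 0.10, 1135 in DESeq2, 631 in limma-voom and 14 with the replicate block, and 30 to 551 with 1 library left out (30 without FSH replicate 2, 551 without FSH replicate 4). Among the members 0 passed, except Ccl7 (1 member) at the 0.10 threshold and in DESeq2. Same-numbered rats did not deviate together (correlations 0.118, -0.110, -0.109, 0.130 and 0.124), so the numbers are not taken as pairs; the block left out degarelix-only replicate 6, and 13 of its 14 genes were among the 292. The cause of these differences was not tested.

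Of the fitted changes of members under the alternatives, 522 kept direction and side of the threshold, 1 (Ccl7 in DESeq2) passed it and 32, in 10 members near 0, changed sign. Ccl5 was 0.0026 with upper-quartile factors and 0.020 in limma-voom, Ccl9 was -0.19 in limma-voom, and Cxcr2 was 0.080 with the replicate block. With 1 library left out, log2 changes ran from -0.29 to 0.17 for Ccl5, -0.67 to 0.47 for Ccl9, -0.16 to 0.10 for Ccl24, -0.062 to 0.73 for Cxcl1, -0.11 to 0.32 for Ccr7, -0.21 to 0.15 for Cxcr2, -0.37 to 0.13 for Cxcr3, -0.19 to 0.075 for Cxcr5, -0.18 to 0.26 for Xcr1 and -0.0031 to 0.086 for Ackr3. Counts limit the rest: 25 members were too scarce to test.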
